A study of Rattus norvegicus with 4 samples.

Results

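The 6 miRNA arms described here are the 5p and 3p arms of miR-140, miR-455 and miR-675, 3 miRNAs linked to cartilage. They were taken by name from the 727 rat miRNAs on the array, as rno-miR-140-5p, rno-miR-140-3p, rno-miR-455-5p, rno-miR-455-3p, rno-miR-675-5p and rno-miR-675-3p. They were measured in fracture callus, the tissue that grows between and around the broken bone ends, of 12-week-old male Sprague-Dawley rats with a closed transverse fracture of the femoral shaft. The diabetic animals had received 40 mg/kg streptozotocin, which destroys pancreatic beta cells, as a single intravenous dose and had a blood glucose over 300 mg/dl, whereas the controls had received sodium chloride and had normal glucose. Callus was taken 11 or 5 days after fracture, giving 4 groups: diabetic day 11, control day 11, diabetic day 5 and control day 5. Tissue of 5 animals was pooled per group and hybridised to 1 one-colour array, so the 4 groups have no replicates and no difference was tested.

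A miRNA is cut from a hairpin of its precursor transcript, and either strand of the hairpin stem, the 5p or the 3p arm, can be loaded onto an Argonaute protein. The loaded arm then finds messenger RNAs mainly by pairing with its seed, bases 2 to 8. A fracture under motion heals largely through a cartilage template that is later replaced by bone. miR-140 is made from within the ubiquitin ligase gene Wwp2 and is abundant in chondrocytes, and in mice it is switched on by the cartilage regulator Sox9 and its loss shortens the long bones. miR-455 is made from within Col27a1, which encodes a fibrillar collagen of cartilage. miR-675 is cut from H19, an imprinted long non-coding RNA, and in human articular chondrocytes it has been linked to the level of the type II collagen transcript.

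Of the 6 arms, 5 had a mature sequence in the RefSeq table used here. They are printed because the seed, in capitals, is the main part by which each arm pairs with transcripts, and because the probes read these strands.
miR-140-5p: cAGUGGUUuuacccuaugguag
miR-140-3p: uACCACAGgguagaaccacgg
miR-455-3p: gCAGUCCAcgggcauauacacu
miR-675-5p: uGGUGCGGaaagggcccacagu
miR-675-3p: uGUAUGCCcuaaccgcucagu
The 5 seeds all differed from one another. Of the 652 other array miRNAs with a sequence, 0 shared any of these seeds. The longest run of bases shared with another array miRNA was 7 for miR-140-5p, 8 for miR-455-3p and miR-675-3p, and 9 for miR-140-3p (with both arms of miR-3561) and miR-675-5p (with miR-147). miR-455-5p was not among the sequences compared.

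The hairpins show how the arms sit in their precursors, with the arms of known sequence in capitals. On the rat build GRCr8, Mir140 lay at chr19:52375293-52375391 on the plus strand within Wwp2, Mir455 at chr5:81704834-81704911 on the plus strand within Col27a1, and Mir675 at chr1:207161752-207161835 on the minus strand within H19 and the overlapping locus LOC102548505. Exons and introns were not analysed here.
Mir140: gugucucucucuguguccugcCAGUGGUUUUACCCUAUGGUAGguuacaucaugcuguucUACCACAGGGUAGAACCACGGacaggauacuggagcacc
Mir455: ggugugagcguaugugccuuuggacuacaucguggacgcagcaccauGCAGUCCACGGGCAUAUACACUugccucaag
Mir675: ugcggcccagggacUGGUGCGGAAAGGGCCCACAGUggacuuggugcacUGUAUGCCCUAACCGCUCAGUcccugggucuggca
The arms of each pair come from 1 hairpin, so they share their precursor and are not independent readings of it.

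Levels are blank-corrected intensities: the spot's median intensity minus the array's mean blank spot, scaled so that the 400 miRNAs detected on all 4 arrays have a median of 100. A miRNA was detected where its spot exceeded the blank mean by 2 SD, which held for 482, 501, 560 and 504 miRNAs on the diabetic day 11, control day 11, diabetic day 5 and control day 5 arrays. All 6 arms were detected on all 4 arrays. The errors given are technical, from repeated control spots on each array, and hold no variation from animal to animal or from hybridisation to hybridisation. As a whole the diabetic day 11 array was dimmer, with a mean of 14528 for the first spike control against 31916 to 36103 on the other 3 arrays, and its values were multiplied by 2.05 in the scaling, against 0.814 for control day 11. In bulk callus, fewer chondrocytes and less of a miRNA per chondrocyte cannot be told apart.

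On day 11, 5 of the 6 arms were at least 2-fold lower in diabetic than in control callus. Over the 550 miRNAs detected on at least 1 of these arrays, 5.64% were at least 2-fold lower and 4.73% at least 2-fold higher. The median log2 difference of the members was -1.46, against 0.03 over the 433 miRNAs detected on both arrays. The arms of miR-140 differed most, followed by those of miR-455 and by miR-675-3p, whereas miR-675-5p was within 2 errors of no difference.

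**Figure D1:**
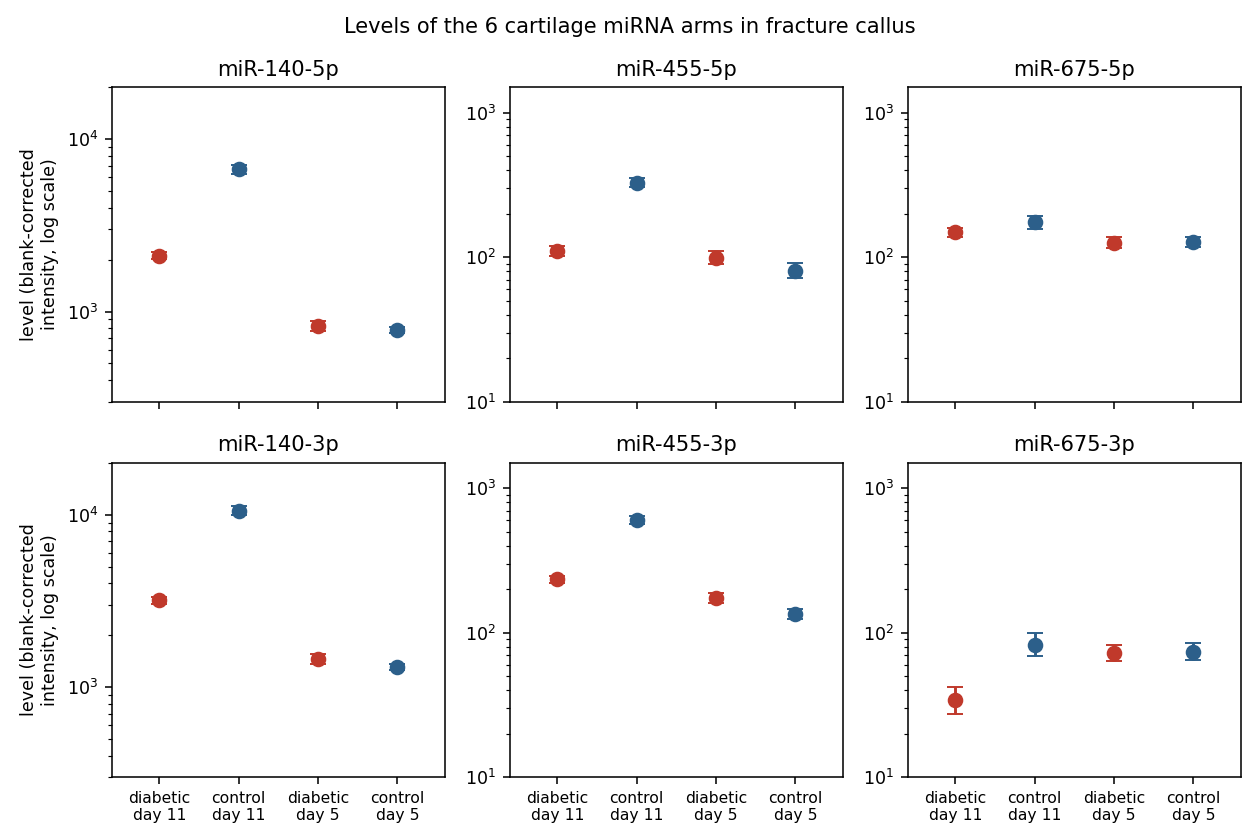
Level of each arm (blank-corrected intensity, log scale) on the 4 arrays, diabetic in red and control in blue, with technical error bars of 1 error in each direction. Each point is 1 pool of 5 animals. The control day 11 array stands above the other 3 for both arms of miR-140 and miR-455, with miR-140-5p at 2111 in diabetic and 6675 in control callus on that day.

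miR-140-5p had a level of 2111 on diabetic day 11 and 829 on diabetic day 5, against 6675 on control day 11 and 785 on control day 5. The control day 11 array was the highest and the day 5 arrays were lowest and alike. Diabetic callus on day 11 was 3.16-fold lower than control callus (log2 -1.66 ± 0.11, technical error), and 3 of the 433 miRNAs detected on both arrays were lower still. Before scaling, the spot itself read 1102 on the diabetic and 8343 on the control day 11 array. In the authors' deposited table it had 801 on diabetic day 11, against 2646 on control day 11. Under 10 other ways of processing, that table among them, the difference stayed between -1.81 and -1.59.

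miR-140-3p had a level of 3187 on diabetic day 11 and 1454 on diabetic day 5, against 10566 on control day 11 and 1309 on control day 5. Its difference on day 11 was 3.32-fold (log2 -1.73 ± 0.11), the third lowest of 433, with a range of -1.90 to -1.37 under the alternatives. Both arms were thus lower by similar amounts, and the gap between their log2 differences was 0.07 ± 0.15. Their spots are neighbours in block 18 of the array, where the 12 other miRNAs detected on both day 11 arrays had a median log2 difference of -0.09.

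miR-455-3p had a level of 235 on diabetic day 11 and 175 on diabetic day 5, against 601 on control day 11 and 135 on control day 5. On day 11 it was 2.56-fold lower in diabetic callus (log2 -1.35 ± 0.12), the twelfth lowest of 433. The size depended on the background used: with limma's normexp on the local background it was -2.26, and with no background subtraction it was -1.12.

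miR-455-5p had a level of 110 on diabetic day 11 and 99.3 on diabetic day 5, against 327 on control day 11 and 80.7 on control day 5. It was 2.98-fold lower in diabetic callus on day 11 (log2 -1.57 ± 0.16), the eighth lowest of 433. Without background subtraction the difference was -0.99, just short of 2-fold, and it passed 2-fold under the other 9 alternatives. The gap between the log2 differences of the arms was -0.22 ± 0.20 (5p minus 3p). The 5p spot lies in block 2 of the array, where 18 other miRNAs had a median of -0.09, and the 3p spot in block 24, where 17 others had a median of 0.31.

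miR-675-5p had a level of 149 on diabetic day 11 and 126 on diabetic day 5, against 174 on control day 11 and 128 on control day 5. The 4 levels lay close together, and no neighbours in their order differed by more than 2 errors. Control day 11 and control day 5, which were not neighbours, differed by log2 0.44 ± 0.19, or 2.39 errors. On day 11 diabetic callus was 1.17-fold lower (log2 -0.23 ± 0.17).

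miR-675-3p had a level of 34.2 on diabetic day 11 and 72.7 on diabetic day 5, against 82.8 on control day 11 and 74.0 on control day 5. The diabetic day 11 array was low and the other 3 were alike. That spot was 5.76 blank SDs above the blank mean, and its local background was 70.3% of the spot, the highest share among the members. The day 11 difference was 2.43-fold (log2 -1.28 ± 0.40, or 3.16 errors), and it shrank to -0.74, -0.52 and -0.32 with normexp on the local background, with normexp on the blank mean and with no background subtraction. With the reported processing, the arms of miR-675 were 1.05 ± 0.44 apart on day 11, or 2.39 errors. miR-675 was the only 1 of the 3 miRNAs whose arms differed by more than 2 errors there. Under the same 3 alternatives miR-675-5p was at -0.22, -0.15 and -0.17, so the arms lay closer together.

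**Figure D2:**
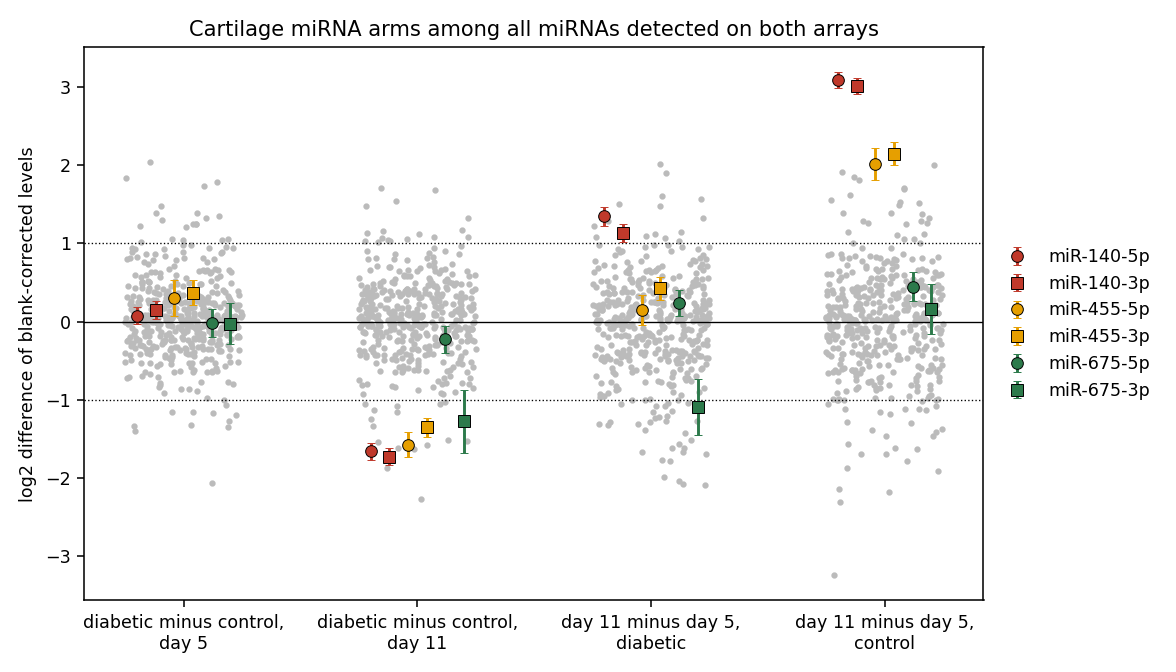
Log2 difference of the blank-corrected levels in the 4 comparisons, for the 6 arms (coloured, with technical error bars) and all miRNAs detected on both arrays (grey). Dotted lines mark 2-fold. Both arms of miR-140 and miR-455 and miR-675-3p lie below the lower line on day 11, and the arms of miR-140 and miR-455 are the 4 highest points of the control time course.

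On day 5 none of the 6 arms differed by 2-fold between diabetic and control callus, and their median difference was 0.11, against 0.04 over the 468 miRNAs detected on both arrays. Of the 596 miRNAs detected on at least 1 of these arrays, 7.38% were at least 2-fold higher and 2.85% at least 2-fold lower. The arms of miR-140 were level, at log2 0.08 ± 0.11 (5p) and 0.15 ± 0.11 (3p). miR-455-3p was 1.29-fold higher in diabetic callus (175 against 135, log2 0.37 ± 0.16) and stayed higher under all 10 alternatives, by 0.20 to 0.67. miR-455-5p was at 0.30 ± 0.23, and normexp on the local background turned its sign (-0.13). The arms of miR-675 were at -0.02 ± 0.18 (5p) and -0.03 ± 0.27 (3p). The sign of the differences of miR-140 and miR-675 on day 5 changed with the scaling, and under the authors' deposited values, whose median difference over all miRNAs was 0.34 on day 5, all 6 arms were higher in diabetic callus.

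In control callus the arms of miR-140 and miR-455 had the 4 largest increases between the days of all 446 miRNAs detected on both control arrays. Over the 559 miRNAs detected on at least 1 of them, 7.51% were at least 2-fold higher and 7.69% at least 2-fold lower on day 11. miR-140-5p was 8.50-fold higher on day 11 (6675 against 785, log2 3.09 ± 0.10) and miR-140-3p 8.07-fold higher (10566 against 1309, log2 3.01 ± 0.10). miR-455-3p was 4.44-fold higher (log2 2.15 ± 0.14) and miR-455-5p 4.05-fold higher (log2 2.02 ± 0.20). These 4 arms passed 2-fold under all alternatives. The miR-455 values moved most, to 1.19 (5p) and 1.501 (3p) with no background subtraction and, for the 5p arm, to 1.32 with normexp on the blank mean.

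The arms of miR-675 did not reach 2-fold in this comparison. miR-675-5p was 1.36-fold higher on day 11 in control callus (174 against 128, log2 0.44 ± 0.19), in place 105 of 446. miR-675-3p was at 82.8 on day 11 and 74.0 on day 5 (log2 0.16 ± 0.32), in place 177.

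In diabetic callus, 2 arms had a day 11 level at least 2-fold higher than that of day 5, and 1 arm a level at least 2-fold lower. Over the 598 miRNAs detected on at least 1 of the diabetic arrays, 4.18% were at least 2-fold higher and 9.53% at least 2-fold lower. miR-140-5p was 2.55-fold higher (2111 against 829, log2 1.35 ± 0.12), in place 7 of 444 detected on both arrays, and passed 2-fold under all 10 alternatives. miR-140-3p was 2.19-fold higher (3187 against 1454, log2 1.13 ± 0.12), in place 12, but fell short of 2-fold with no background subtraction (0.87) and in the authors' deposited values (0.84). miR-140 was therefore higher on day 11 in diabetic callus as well, by less than in control callus.

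miR-455-3p was 1.34-fold higher on diabetic day 11 (235 against 175, log2 0.42 ± 0.14), or -0.21 with normexp on the local background. miR-455-5p was at 110 on diabetic day 11 and 99.3 on diabetic day 5 (log2 0.15 ± 0.19), a gap within the technical error. miR-675-5p was at 149 and 126 (log2 0.24 ± 0.17). The authors' deposited values had a median of -0.29 over all miRNAs in this comparison and gave -0.15 for miR-455-5p and -0.05 for miR-675-5p.
miR-675-3p was 2.13-fold lower on diabetic day 11 than on day 5 (34.2 against 72.7, log2 -1.09 ± 0.36). This 2-fold call was kept under 1 of 10 alternatives, the authors' deposited values (-1.38), and the other 9 gave -0.97 to -0.24.

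The diabetic time course minus the control time course, which is also the day 11 difference minus the day 5 difference, was at least 2-fold lower for 5 of the 6 arms. Of the 400 miRNAs detected on all 4 arrays, 9.25% were at least 2-fold lower and 4.75% at least 2-fold higher by this measure, and its median over all 400 was 0.04. It was -1.74 ± 0.16 for miR-140-5p, -1.88 ± 0.16 for miR-140-3p, -1.87 ± 0.28 for miR-455-5p and -1.73 ± 0.20 for miR-455-3p. These 4 values lay within 2 technical errors of each other and took places 10, 6, 7 and 11 from the lowest. All 4 stayed past 2-fold under all alternatives, with miR-455-5p moving to -1.13 without background subtraction and miR-455-3p to -2.65 with normexp on the local background.

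miR-675-3p had a value of -1.25 ± 0.48 on this measure, and miR-675-5p -0.21 ± 0.25. The 2-fold call of miR-675-3p was lost with normexp on the local background (-0.65), with normexp on the blank mean (-0.48) and with no background subtraction (-0.33).

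**Figure D3:**
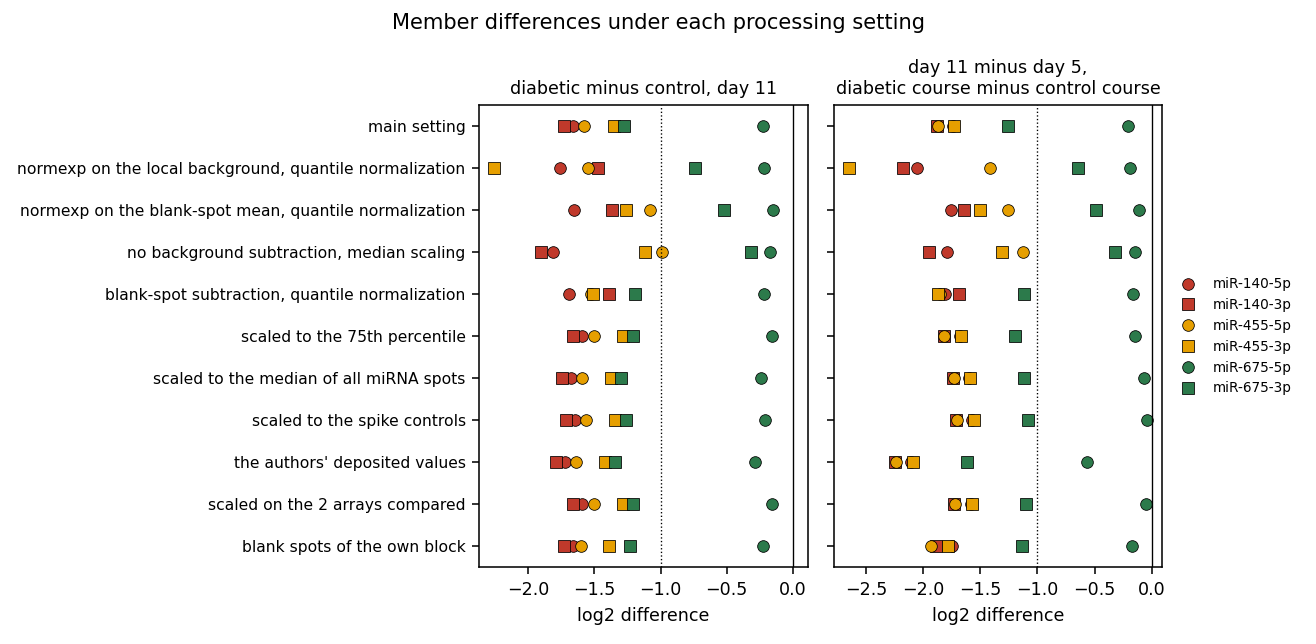
Log2 difference of the 6 arms under the reported processing (top) and 10 alternatives, for diabetic minus control on day 11 (left) and for the diabetic minus the control time course (right). The dotted line marks 2-fold. Both arms of miR-140 stay beyond it under all settings in both panels, miR-455-5p falls just short of it on day 11 without background subtraction (-0.99), and miR-675-3p crosses it under 3 settings.

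The order of the 4 levels was the same for both arms of miR-140: control day 11, then diabetic day 11, then the day 5 arrays, which did not differ beyond 2 errors. For miR-455-3p the order was control day 11, diabetic day 11, diabetic day 5 and control day 5, and each step was larger than 2 errors. For miR-455-5p the order was the same, but control day 11 alone stood apart from its neighbour. For miR-675-3p diabetic day 11 alone stood apart, as the lowest.

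The arms of a miRNA had nearly the same shape over the 4 arrays for miR-140 and miR-455. After centring each log2 profile on its mean, the root mean square deviation between the arms was 0.08 for miR-140, 0.13 for miR-455 and 0.55 for miR-675. Between the miRNAs, each averaged over its arms, it was 0.49 for miR-140 and miR-455, 1.15 for miR-140 and miR-675 and 0.68 for miR-455 and miR-675. These are descriptions over 4 arrays that share the scaling.

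Of the 394 other miRNAs detected on all 4 arrays, the one most like miR-140 in shape was miR-210-3p, which is induced by hypoxia, with a deviation of 0.41, followed by miR-129-2-3p (0.58), miR-322-3p (0.65), miR-1298 (0.69) and miR-208a-5p (0.70). The median deviation over the 394 was 1.27. miR-129-2-3p was dim on day 5, at 12.4 in diabetic and 11.7 in control callus. The lowest detected levels on those arrays were 11.2 and 10.2, so its place rests on spots near the detection limit. miR-210-3p had a level of 263 on diabetic day 11 and 92.8 on diabetic day 5, against 546 on control day 11 and 145 on control day 5. Its control day 11 array was the highest, as for miR-140, but it was already lower in diabetic callus on day 5 (log2 -0.64 ± 0.19).

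The likest to miR-455 were miR-1298 (0.34), miR-322-3p (0.35), miR-878 (0.40), miR-503-3p (0.40) and miR-181a-1-3p (0.42), against a median of 0.85. miR-322 and miR-503 are made from 1 cluster. miR-1298 had a level of 716 on diabetic day 11 and 438 on diabetic day 5, against 1119 on control day 11 and 458 on control day 5. It shared the order at the top, with a smaller range. On day 5 its log2 difference was -0.06, against 0.30 ± 0.23 for miR-455-5p and 0.37 ± 0.16 for miR-455-3p, the last beyond 2 errors.

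miR-675 was most like miR-3547 (0.05), miR-664-2-5p (0.05), miR-3473 (0.11), miR-711 (0.11) and miR-143-5p (0.12), against a median of 0.40. The arms of miR-675 differ by more than this from each other, so the averaged profile describes neither arm closely.

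A list of 25 other miRNAs linked to cartilage or chondrogenesis, 24 of them on the array, was read beside the members. Of all 433 miRNAs detected on both day 11 arrays, 17 were at least 2-fold higher and 21 at least 2-fold lower in diabetic callus. In the list, 2 of 24 were at least 2-fold higher and 1 at least 2-fold lower, with a median of 0.09. miR-210-3p was the lower one (log2 -1.05 ± 0.12). miR-221-3p, which targets the cell-cycle inhibitor gene Cdkn1b in human cells, was higher at 778 against 367 (log2 1.08 ± 0.12). miR-337-3p was higher at 59.5 against 29.2, a gap within 2 errors (log2 1.03 ± 0.73).

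On day 5, 0 of the 23 detected on both arrays differed by 2-fold, and the median was -0.01. Of all 468 miRNAs detected on both, 20 were at least 2-fold higher and 12 at least 2-fold lower. miR-9a-5p was left out here, with a level of 21.7 on diabetic day 5 and no detection on control day 5. Between the days, 1 of 24 was at least 2-fold higher on day 11 in diabetic callus, miR-210-3p (263 against 92.8), and 0 were lower. Of all 444 miRNAs detected on both diabetic arrays, 17 were at least 2-fold higher and 36 at least 2-fold lower. In control callus, 31 of the 446 miRNAs detected on both arrays were at least 2-fold higher and 31 at least 2-fold lower. Of the list, 2 of 23 were higher there, miR-210-3p (log2 1.91 ± 0.14) and miR-181b-5p (293 against 122, log2 1.26 ± 0.16). There 3 were lower, miR-18a-5p (log2 -1.70 ± 0.37), miR-337-3p (log2 -1.42 ± 0.73, within 2 errors) and miR-146a-5p, a feedback inhibitor of interleukin-1 signalling (log2 -1.08 ± 0.11). The median of the list was 0.11 in the diabetic and -0.14 in the control time course, against 0.33 and 2.08 for the 6 members.

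By the diabetic minus the control time course, 2 of 23 were at least 2-fold higher, miR-495 (log2 1.59 ± 0.78) and miR-337-3p (log2 1.04 ± 0.78), and 0 were lower, against 4.75% and 9.25% of the 400 miRNAs. The value of miR-337-3p lay within 2 errors of no difference. miR-145-5p, which targets Sox9 in mouse and human cells, was at 1124 on diabetic day 11 and 1031 on diabetic day 5, against 1110 on control day 11 and 978 on control day 5, nearly level on all 4 arrays. miR-199a-5p was at 9221 and 6521 in diabetic callus, against 7499 and 6268 in control callus, on days 11 and 5.

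**Figure D4:**
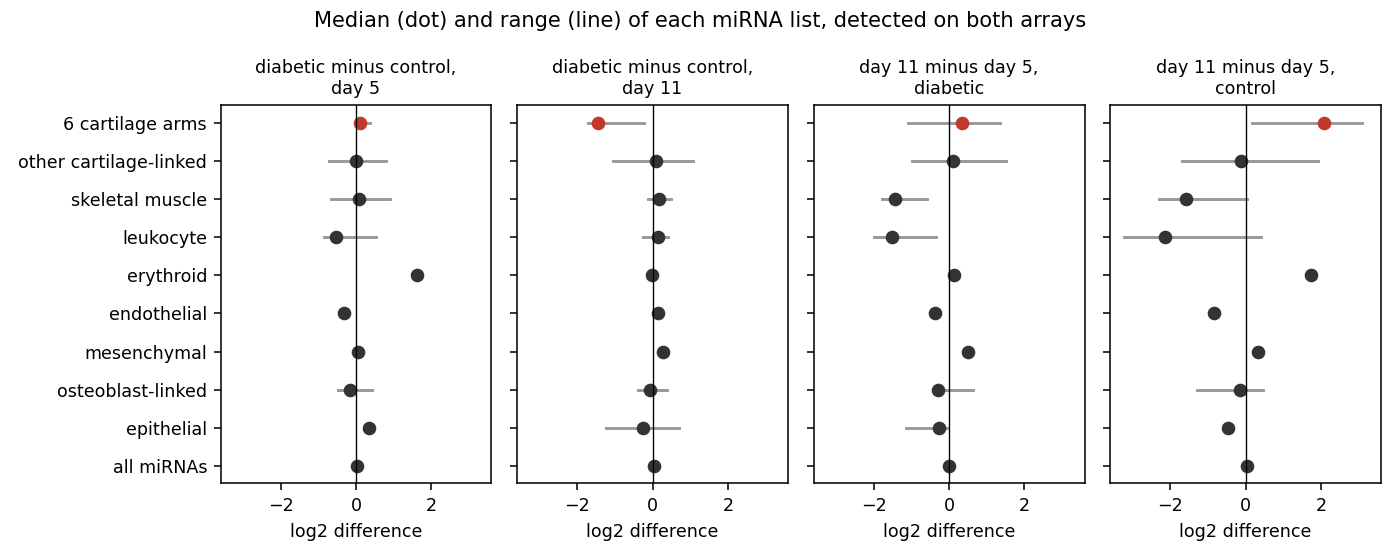
Median (dot) and range (line) of the log2 differences of each miRNA list in the 4 comparisons, over members detected on both arrays. The mesenchymal and the other cartilage-linked list share both arms of miR-199a. On day 11 the 6 cartilage arms have a median of -1.46 in diabetic minus control callus, and the medians of the other lists in that panel lie between -0.27 and 0.27.

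Marker miRNAs of other cell types were read on the same arrays, and their levels are summed over all listed probes, detected or not. The mesenchymal miRNAs miR-199a-3p and miR-199a-5p are also in the list of other cartilage-linked miRNAs. The summed level of the 6 cartilage arms was 5825 on diabetic day 11 and 2756 on diabetic day 5, against 18426 on control day 11 and 2512 on control day 5. Most of this sum came from miR-140 on each array. Its 5p and 3p arms were at 2111 and 3187 on diabetic day 11, against 6675 and 10566 on control day 11. The 6 skeletal muscle miRNAs summed to 10014 and 29700 in diabetic callus, against 9425 and 28369 in control callus, on days 11 and 5. The 5 leukocyte miRNAs summed to 1559 and 5194 in diabetic callus, against 1325 and 8454 in control callus. These sums were lower on day 11 than on day 5 in both groups, opposite to miR-140. In each time course 5 of 6 muscle and 4 of 5 leukocyte miRNAs were at least 2-fold lower. Of all miRNAs detected on both arrays, 36 of 444 were so in diabetic and 31 of 446 in control callus. In control callus miR-155-5p (log2 0.41 ± 0.30) and miR-208b-3p (log2 0.04 ± 1.90) were not lower. Their part in the time courses of the members was not tested.

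Between diabetic and control callus on day 11, medians were 0.17 for muscle (6 miRNAs) and 0.14 for leukocytes (5). They were 0.14 for endothelium (2) and 0.27 for mesenchymal miRNAs (3). In these 4 lists 0 miRNAs were past 2-fold. Of all 433 miRNAs detected on both arrays, 17 were at least 2-fold higher and 21 at least 2-fold lower. With so few miRNAs listed, a count of 0 is near that share. The 2 endothelial miRNAs summed to 4160 and 5492 in diabetic callus, against 3951 and 6973 in control callus, and the 3 mesenchymal miRNAs to 30095 and 20851, against 24894 and 20153, on days 11 and 5. The 4 osteoblast-linked miRNAs summed to 973 and 811, against 1026 and 867, with a day 11 median of -0.06 over the 3 detected on both arrays and miR-338-3p not detected on diabetic day 11. Of 7 epithelial miRNAs, 4 and 5 were detected on the diabetic arrays of days 11 and 5, against 3 and 1 on the control arrays, and all 7 summed to 119 and 173, against 96.3 and 89.1, which includes the levels of those not detected. Of the 2 detected on both day 11 arrays, miR-203a-3p was lower in diabetic callus (19.1 against 45.4, log2 -1.25 ± 0.71) and miR-205 was at 58.8 against 35.8 (log2 0.71 ± 0.61), with a median of -0.27. Both differences were within 2 errors.

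The erythroid miRNAs differed between the groups on day 5 and not on day 11. They summed to 1559 and 1460 in diabetic callus, against 1599 and 514 in control callus, on days 11 and 5. On day 5, miR-451-5p, the most abundant miRNA of red cells, was at 1357 in diabetic and 486 in control callus (log2 1.48 ± 0.11), while the 6 cartilage arms did not differ by 2-fold. On day 11 it was at 1458 in diabetic and 1495 in control callus (log2 -0.04 ± 0.11). miR-144-5p was detected on the diabetic day 5 array alone. By the diabetic minus the control time course, miR-451-5p (log2 -1.52 ± 0.16) and miR-144-3p (log2 -1.71 ± 0.59) were also at least 2-fold lower. The median of the 6 cartilage arms by this measure was -1.73. On day 11, miR-451-5p and miR-144-3p (log2 0.03 ± 0.26) were thus each within technical error of no difference between diabetic and control callus. The part of red cells in the differences of the members was not tested.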

How the data were processed

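Each array was a 3D-Gene rat miRNA chip hybridised with Cy5-labelled total RNA, per the labels' protocols. The deposited scanner files hold linear intensities, the median of each spot and of its local background, per the file headers. The authors' deposited table also holds linear intensities; set against the scanner files, each value was the blank-subtracted spot times 1 factor per array that brings the median listed value to 25, within 0.114%. It served as an alternative, since the arrays list different numbers of miRNAs.

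The mean of 1504 blank spots, trimmed by 5% at each end, was subtracted from each spot, because the local background rose with the spot (correlation of the logs 0.758 to 0.953 across probes). Levels were scaled as described above, and a difference was called at 2-fold on the log2 scale. The technical error joins the log2 spread of the spike spots (SD 0.057 to 0.096) with the spread of 8 spots of a dim control probe. The blank spots had been planned for the second part, but the dim probe showed a larger spread (log2 SD 0.303 to 0.462, against 0.157 to 0.326 from the blanks), so it replaced them after the data were seen. Levels were set apart where their gap exceeded 2 errors. No test, interval or p-value was computed, and the number of arrays limits the precision.

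All 6 members are named throughout. The 5 likest miRNAs per member miRNA were those with the lowest root mean square deviation of centred log2 profiles. The lists were other cartilage-linked, skeletal muscle, leukocyte, erythroid, endothelial, mesenchymal, osteoblast-linked and epithelial miRNAs. The members and lists were chosen with earlier results of these data known. Of 727 array miRNAs, 653 matched a RefSeq sequence (GRCr8). The calculations were tested on simulated data. Python 3.11.15, numpy 2.4.6, pandas 2.3.3, R 4.3.3 and limma 3.58.1 were used. Alternatives covered the background, the scaling, the detection limit (5 SD or none), a 1.5-fold threshold and the authors' deposited values.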

Additional observations from a re-analysis of the deposited data

Results flagged for a closer look

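For 4 arms the difference between diabetic and control callus had opposite signs on the 2 days, higher on day 5 and lower on day 11. The day 11 log2 difference minus the day 5 log2 difference was -1.74 for miR-140-5p, -1.88 for miR-140-3p, -1.87 for miR-455-5p and -1.73 for miR-455-3p. The change of sign was not tested, and the day 5 side of it was within 2 technical errors of no difference for both arms of miR-140 and for miR-455-5p. miR-455-3p was past 2 errors on both days, at -1.35 ± 0.12 on day 11 and 0.37 ± 0.16 on day 5.

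miR-675-3p had opposite signs in the time courses, lower on day 11 in diabetic callus and higher on day 11 in control callus, with a difference of -1.25 between the diabetic and the control course. The difference was not tested. The control course was within the technical error (log2 0.16 ± 0.32), and the diabetic course rests on a dim spot, 5.76 blank SDs above the blank mean on day 11.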

How the results depend on the processing

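The count of members past 2-fold moved by over 1.5 times under 1 setting: without background subtraction it was 3 in place of 5 for diabetic minus control on day 11, and 1 in place of 3 for the diabetic time course. For the diabetic time course the other background and scaling alternatives also gave fewer, with 2 higher. The authors' deposited values gave 2 there as well, 1 higher and 1 lower. The cause was not tested. The counts of day 5 (0), of the control course (4) and of the diabetic minus the control course (5) stayed within 1.5 times under the alternatives run. Of 300 single differences of members under alternatives, 205 moved by less than their technical error and 95 by more, and 0 called differences changed sign. Under the authors' deposited values the median of all miRNAs was 0.34 on day 5, against 0.04 as reported, and -0.33 for the diabetic minus the control course, against 0.04. The scalings on the 2 arrays compared and the blank spots of a member's own block were chosen after seeing the data. No paired analysis was possible because each group has 1 array and no replicate number. The technical errors of the members were widest for miR-675-3p on all 4 arrays, and 1 pool per group leaves the spread between animals unmeasured.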
